A study of Homo sapiens with 36 samples.

Results

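U87 is a human glioblastoma cell line that grows as an adherent, migrating culture. The data described here are the 6 U87 arrays among 36 in all: 3 arrays of the pseudopod fraction (PS in the labels) and 3 of the cell body fraction (CB), chosen by the cell line and fraction that the labels give. Cells were kept for 24 h on a filter with fine pores, in high glucose DMEM with serum. Pseudopods that had passed to the lower face and cell bodies on the upper face were then scraped off separately. RNA from each fraction (100 ng) was primed with oligo(dT), amplified in 2 cycles, labelled with biotin and read on Affymetrix arrays. Neither fraction carries a genetic change or a drug treatment, and both come from 1 established line. The labels number the arrays 1 to 3 in each fraction but do not say whether these are separate cultures. The p-values thus measure the spread between arrays of the same group, pooled over all 12 groups, which may be technical. The other 30 arrays hold the same fractions of U251 (glioblastoma), HT1080 (fibrosarcoma), DU145 (prostate carcinoma), MDA231 (breast carcinoma) and MDA435. They enter here through the shared estimate of the spread and through 1 comparison at the end.

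Pseudopods are actin-rich protrusions by which a moving cell explores and grips its surroundings. RNAs reach them unevenly. Some are carried there along microtubules, whereas RNAs that code for secreted and membrane proteins are translated on the endoplasmic reticulum (ER), which lies mostly around the nucleus, and nuclear RNAs stay behind unless the nucleus itself passes. The comparison of the fractions asks which RNAs make up a larger or smaller share of the RNA in the protruding part than in the cell body. Values are intensity units on a linear scale, changes are differences of log2(intensity + 16), pseudopod minus cell body, and a gene is called at an adjusted p under 0.05 (limma, Benjamini-Hochberg over the 15399 genes tested). Because an equal amount of RNA was labelled from each fraction, a change is one of relative abundance, and the amount of RNA per cell or per fraction was not measured.

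Pseudopod replicate 3 stood apart from the other pseudopod arrays. Over all genes tested, its correlation with the cell body arrays was 0.976 to 0.978, above its correlation with pseudopod replicate 1 (0.969) and replicate 2 (0.966), whereas replicates 1 and 2 correlated at 0.981 with each other and at 0.925 to 0.959 with the cell bodies. The median intensity of replicate 3 was 24, within the cell body range of 22.2 to 24.8, whereas replicates 1 and 2 had 18.2 and 20.3. All 6 arrays correlated best with another U87 array. Counts below are therefore given with and without this array, and a section on it follows the gene groups. Markers set the line as mesenchymal more than glial: VIM lay between 3660 and 7170, and 18 of 20 mesenchymal markers had a median of at least 24.4 units (the median of all values), against 7 of 22 glial and neural markers, 4 of 17 epithelial, 4 of 11 melanocytic and 6 of 12 blood and endothelial markers. The astrocyte filament gene GFAP (2.4 to 13.2), S100B (0.8 to 1.7) and SOX2 (6.8 to 18.1) were all low. The 7 glial and neural markers that reached 24.4 included SLC1A3 (median 417), CSPG4 (210), NES (122) and TUBB3 (2590). Epithelial CDH1 (at most 4.6) and KRT18 (at most 7) were near the floor. The summed level of the blood and endothelial list was 472 to 890 in pseudopods and 826 to 987 in cell bodies, that of the glial list 3614 to 4518 and 3431 to 3951, and that of the mesenchymal list 23487 to 32672 and 34290 to 48856. The part of these levels in the results was not tested. Both fractions come from 1 line, and these relative levels measure neither numbers of cells nor the amount of RNA per cell.

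In U87, 1805 genes rose in pseudopods (11.7% of those tested) and 1817 fell (11.8%). The sides differed in size: 1081 genes fell at least 2-fold (7.02%) and 168 rose at least 2-fold (1.09%). Of the 1081, 187 belong to the 13 lists of secretory pathway, secreted, membrane and antigen presentation genes described below, and 0 of the 168 do. These lists were written with earlier results of these data known and hold 12 to 33 of the 15399 genes tested each, so the counts are a description. The lists hold a small share of all genes, so few of the 168 would lie in them anyway. The 0 is not read as exclusion from the rises. APLN, a secreted peptide that rose by 1.51, is among the 168 and in none of these lists. The 3 pseudopod arrays lay wholly below the 3 cell body arrays in 957 of the 1081 and wholly above them in 160 of the 168, and over all genes tested in 14.3% and 17%. Without pseudopod replicate 3, 2312 genes rose (15%) and 2141 fell (13.9%), with 382 (2.48%) and 1402 (9.1%) at least 2-fold. With array medians made equal, the median over all genes went from 0.04 to 0.17 and the calls split into 2348 higher and 1453 lower, so that 61.8% of calls were rises instead of 49.8%. The counts also depended on single arrays. Without pseudopod replicate 2, 949 rises and 1205 falls were called, with 641 falls of at least 2-fold, and the rises were 1163 without pseudopod replicate 1 and 1199 without cell body replicate 1. In a fit to the 6 U87 arrays alone there were 498 and 858.

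The 12 largest falls with no overlap between the fractions were led by RBM6, POGLUT2, CCPG1 and the nucleolar RNA45SN5 (-2.33; -1.42, adjusted p = 0.062, limma, without pseudopod replicate 2), which is described with the nuclear RNAs. POGLUT2, a protein O-glucosyltransferase of the ER, stood at 179.6, 99.4 and 447.2 in pseudopod replicates 1, 2 and 3 and at 1088, 1144 and 1247 in the cell bodies (-2.42 ± 0.29 SE, adjusted p = 3.8e-06, limma). Its highest pseudopod value, in replicate 3, was still less than any cell body value. SERPINH1, the collagen chaperone HSP47, stood at 339.2, 161.1 and 589 against 1517, 1423 and 1616 (-2.19 ± 0.29, adjusted p = 9.7e-06, limma). STT3A, the catalytic subunit that transfers N-glycans, stood at 89.8, 60.3 and 114.9 against 371.5, 425.2 and 610.4 (-2.22 ± 0.43, adjusted p = 3.0e-04, limma), and here all 3 pseudopod arrays were close together. The other members with ER or membrane products were TMEM30A, a flippase subunit (-2.23), HSPA13, an HSP70-like protein of microsomes (-2.19), P3H2, a collagen prolyl hydroxylase (-2.18), the ER zinc transporter SLC39A7 (-2.18), the amino acid transporter SLC6A15 (-2.16), the ER-phagy receptor CCPG1 (-2.38) and the class II chain HLA-DRA (-2.26). In P3H2 the gap between the fractions was narrow, with pseudopod replicate 3 at 342.4 and cell body replicate 2 at 352.9. RBM6, an RNA-binding protein of the nucleus, gave -2.51 ± 0.27 from 1 probe set while another well-measured one gave -0.11, so its fall was seen with 1 probe set and not with the other.

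The 12 largest rises, from 1.39 to 1.67, were smaller than the 12 largest falls. ROMO1, a small protein of the mitochondrial inner membrane, stood at 1976, 1779 and 1054 in pseudopods against 409.1, 582.1 and 586.6 in cell bodies (1.55 ± 0.30, adjusted p = 3.3e-04, limma). RPL11, a protein of the large ribosomal subunit, stood at 4454, 3981 and 2891 against 1178, 2001 and 1107 (1.42 ± 0.20, adjusted p = 1.3e-05, limma). SEM1, a very small proteasome subunit, stood at 4688, 4206 and 1877 against 987.3, 1589 and 1120 (1.45 ± 0.24, adjusted p = 5.2e-05, limma). The pseudopod arrays were all higher in these genes, with replicate 3 the lowest of them. ATP5ME, a subunit of ATP synthase, was 1.40 higher, CHCHD10, a protein of the mitochondrial intermembrane space, 1.49, LSM7, a ring protein of RNA decay and splicing, 1.49, NUDT1, which clears oxidised nucleotides, 1.47, and HIKESHI, the nuclear importer of HSP70, 1.40. RPL7AP10 (1.53) is a pseudogene whose probe set may also read the parent gene's RNA. For HINT3 (1.67) the other probe sets gave 0.57 and 0.30, for PDCD5 (1.39) -0.86 and for APLN, a secreted peptide (1.51), -0.37, so their size rests on 1 probe set. The APLN call was lost without pseudopod replicate 2 (1.37, adjusted p = 0.063, limma) and without cell body replicate 1 (1.36, adjusted p = 0.057, limma).

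**Figure D1:**
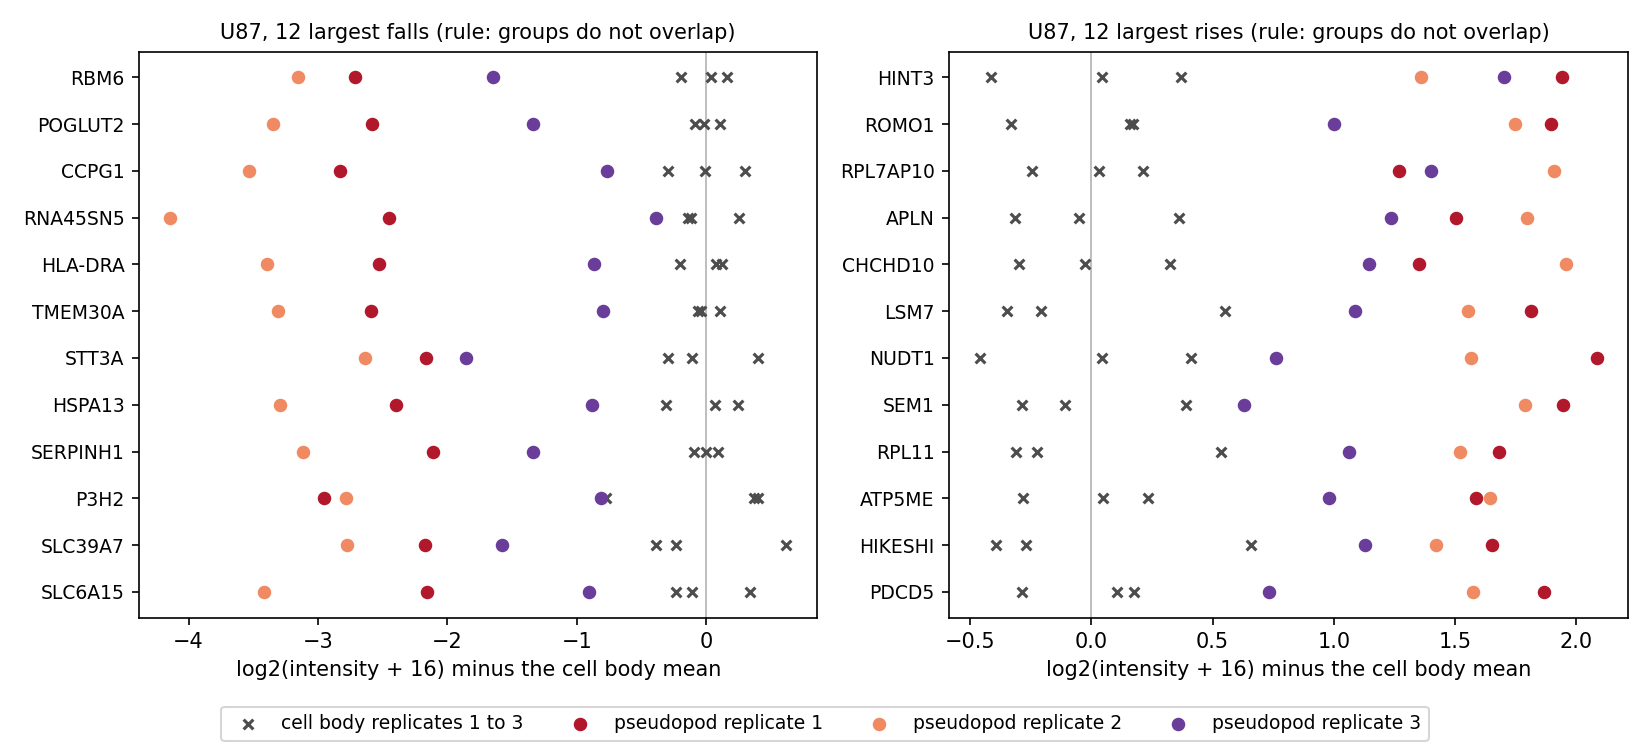
Log2(intensity + 16) of each U87 array minus the cell body mean, for the 12 largest falls (left) and rises (right) among called genes whose fractions do not overlap; crosses are the 3 cell body arrays and points the 3 pseudopod arrays, by replicate. Replicate 3 lies between the other pseudopod arrays and the cell bodies in all 12 falls, as in RNA45SN5 (-2.45, -4.14 and -0.38 in replicates 1, 2 and 3), but not in HINT3 or RPL7AP10.

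Genes that serve protein entry, folding and glycosylation in the ER fell together. Of 27 ER chaperones and folding enzymes tested, 24 fell and 0 rose, beside 11.8% and 11.7% over all genes, and their median change was -1.55 against 0.04 over all genes. HSPA13 stood at 153.1, 75 and 467.7 in pseudopods against 704, 919.7 and 1042 in cell bodies. SEL1L, the adaptor of ER-associated degradation, stood at 226.9, 112.3 and 592.7 against 1178, 749.6 and 983.7 (-1.86 ± 0.32), and no pseudopod array reached a cell body array in either gene. HSP90B1, the ER form of HSP90 (-2.10), and PDIA4, a disulfide isomerase (-1.93), lost their calls without pseudopod replicate 2 (-1.46, adjusted p = 0.082, and -1.48, adjusted p = 0.052, limma). At an unadjusted p under 0.05 the list had 25 lower and 0 higher members, and the 3 members not called were SDF2L1 (-0.89), HERPUD1 (-0.57) and FKBP2 (-0.14). Leaving out 1 U87 array at a time gave 18 to 24 falls and a median of -1.95 to -1.20.

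N-glycan transfer and ER glycosylation followed, with 19 of 23 lower, 0 higher and a median of -1.38. ALG8, which adds glucose to the glycan precursor, stood at 255, 188.9 and 611.1 against 981.5, 1143 and 1247 (-1.80 ± 0.24). MOGS, which trims the first glucose, stood at 64.6, 33.4 and 109.3 against 214.1, 250.4 and 296.3 (-1.75 ± 0.26). MAGT1, an oxidoreductase subunit of the transferase, changed by -1.76 ± 0.25. The small subunits DAD1 (-0.27), DPM3 (-0.11) and DPM1 (0.22) were not called, nor was TUSC3 (-0.13).

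In the list of translocon and signal recognition particle genes, 14 of 23 fell and 3 rose (median -0.68), beside 11.8% and 11.7% over all genes. The share that rose is thus close to that over all genes. Those that fell included SRPRB, the receptor's anchored subunit (-1.94 ± 0.27), SEC63 (-1.71 ± 0.26), SSR2 (-1.58 ± 0.18) and SEC61A1, the channel itself (-1.48 ± 0.27). SEC61A1 stood at 1215, 654.2 and 2126 in pseudopods against 3608, 2818 and 3707 in cell bodies, a gap also with replicate 3. The 3 risers, named after their values were seen, are soluble subunits of the signal recognition particle: SRP19 (0.64), SRP14 (0.56) and SRP68 (0.36). The SRP68 call was lost without pseudopod replicate 1 (0.33, adjusted p = 0.054), pseudopod replicate 2 (0.29, adjusted p = 0.096) or cell body replicate 1 (0.34, adjusted p = 0.051, all limma), and SRP14 and SRP19 stayed called in each fit that left out 1 array. SRP9 (0.18), SRP72 (0.25) and SRP54 (-0.03), soluble subunits too, and SEC61B, a channel subunit (0.33), were not called.

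Secreted products of the line were lower as a group. Of 24 collagen chains and collagen-modifying enzymes, 21 fell and 0 rose (median -1.51). COL5A2, a fibrillar collagen chain, stood at 193.9, 114.7 and 841.6 in pseudopods against 1666, 957.5 and 1204 in cell bodies (-2.14 ± 0.38, adjusted p = 1.4e-04, limma). COL8A1, a short-chain collagen, stood at 449.5, 254.2 and 1515 against 2708, 1602 and 2871 (-2.01 ± 0.39), and in both genes pseudopod replicate 3 came within reach of cell body replicate 2 without crossing it. COL6A2 changed by -2.07 ± 0.51 and lost its call without pseudopod replicate 2 (-1.25, adjusted p = 0.071, limma). Without that array 14 of the 24 collagen genes were called lower, the fewest of the 6 fits that leave out 1 U87 array.

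Matrix glycoproteins gave 19 of 29 lower and 0 higher (median -1.34; 12 to 19 with 1 array left out, fewest without pseudopod replicate 2). VCAN, a large proteoglycan of glial tumours, stood at 354.2, 97.4 and 750.4 against 1518, 1610 and 1081 (-2.14 ± 0.44). CCN1, a matricellular protein, stood at 231, 217.3 and 661.3 against 1206, 1096 and 1136 (-1.77 ± 0.29), and the fractions overlapped in neither. CCN2, its relative, had -1.89 ± 0.48 with overlap, since pseudopod replicate 3 (388.3) exceeded cell body replicate 2 (359.3). FN1 (-0.91, adjusted p = 0.19) and SPARC (-0.88, adjusted p = 0.12), among the brightest genes of the list, did not pass limma's test.

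Proteases and their inhibitors gave 21 of 24 lower and 0 higher (median -1.31). ADAM10, a membrane sheddase, stood at 583.4, 290.7 and 1334 in pseudopods against 2632, 2173 and 2578 in cell bodies (-1.97 ± 0.27, adjusted p = 1.1e-05, limma), with a wide gap. The collagenase MMP1 stood at 40.6, 26.2 and 112.9 against 229.5, 229.7 and 351.3 (-2.06 ± 0.40) and ADAMTS1 changed by -1.72 ± 0.40. Of 26 cytokines and growth factors 11 fell and 1 rose (median -0.74; 6 fell without pseudopod replicate 2, 7 without pseudopod replicate 1 or cell body replicate 1, and 6 with equal array medians). ANGPTL4 (-1.64 ± 0.29), CSF1 (-1.54 ± 0.32), HBEGF (-1.46 ± 0.34) and STC2 (-1.34 ± 0.23) fell. Over all genes 11.8% fell and 11.7% rose. The riser, MIF (0.67), named after its value was seen, is a cytokine made without a signal peptide in the cytosol. Its call was lost without pseudopod replicate 1 (0.54, adjusted p = 0.066, limma).

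Genes of cell surface proteins were lower in pseudopods. Among 33 integrins, tetraspanins and other adhesion receptors, 28 fell and 0 rose (median -1.37; 21 to 29 with 1 array left out). CD9, a tetraspanin, stood at 638, 436.7 and 1458 in pseudopods against 3192, 2469 and 2942 in cell bodies (-1.92 ± 0.27). CDH2, N-cadherin, stood at 136.5, 145.2 and 425.4 against 760.9, 748.9 and 740.8 (-1.79 ± 0.29), and SDC1, a heparan sulfate proteoglycan, at 232.7, 170.5 and 523.5 against 945.6, 1184 and 1032 (-1.87 ± 0.24). In each of these genes the pseudopod arrays were all lower and replicates 1 and 2 were well under replicate 3. ITGA7, a laminin receptor chain, changed by -1.96 ± 0.35. The 5 members not called were ITGB8 (-1.10), ITGA11 (-0.51), ITGB1 (-0.37), CDH11 (-0.36) and L1CAM (-0.01).

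Among 22 growth factor receptor kinases 16 fell and 0 rose (median -0.98; 9 to 17 with 1 array left out, fewest without pseudopod replicate 2). INSR, the insulin receptor, stood at 42.8, 48.1 and 167.2 against 351.6, 242.8 and 278.2 (-1.78 ± 0.30), the activin receptor ACVR1 changed by -1.48 ± 0.24 and TGFBR1 by -1.36 ± 0.28. EGFR, the receptor most often altered in glioblastoma, stood at 172.6, 73.8 and 321.2 in pseudopods against 370.5, 329.5 and 406.1 in cell bodies (-1.10 ± 0.39, adjusted p = 0.039, limma). Its highest pseudopod value and lowest cell body value differed by little. The EGFR call was lost in 5 of the 6 fits that leave out 1 U87 array, with -1.14 (adjusted p = 0.078) without pseudopod replicate 1, -0.60 (0.36) without replicate 2, and -1.10 (0.092), -1.18 (0.057) and -1.03 (0.11) without cell body replicates 1, 2 and 3 (adjusted p from limma in brackets).

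Inner membrane systems gave the same direction. Of 28 Golgi glycosyltransferases and cargo receptors 23 fell and 0 rose (median -1.13), led by B4GAT1 (-2.08 ± 0.34) and EXT2 (-2.03 ± 0.32), both enzymes that build glycan chains of matrix receptors and heparan sulfate. Of 23 lysosomal hydrolases and membrane proteins 18 fell and 1, ATP6V0D1 (0.56), rose (median -1.36). LIPA, the acid lipase, stood at 527.7, 265.6 and 987.6 against 1849, 2274 and 2060 (-1.95 ± 0.25), and LAMP2 at 502.3, 256.7 and 1089 against 1696, 1752 and 1780 (-1.71 ± 0.29), both with a clear gap. ATP6V0D1, named after its value was seen, is a subunit of the proton pump that is bound to its membrane part from the cytosol. Over all genes 11.8% fell and 11.7% rose. Of 16 cholesterol synthesis genes 5 fell, SQLE most (-1.91 ± 0.31), and the list median was -0.35. HLA class I and antigen presentation genes fell in 8 of 12 (median -1.11; 6 to 9 with 1 array left out). The peptide transporter TAP2 stood at 202, 118.3 and 357.5 against 709.7, 641.2 and 585.1 (-1.57 ± 0.25), and HLA-E changed by -1.27 ± 0.26. ERAP1 changed by -1.26, but without the probe sets that can read several transcripts by their name suffix it was 0.19. That value is from 1 remaining probe set, and another remaining one gave -1.62. The light chain B2M (-0.10) and the proteasome subunits PSMB8 (0.45) and PSMB9 (0.64) were not called.

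**Figure D2:**
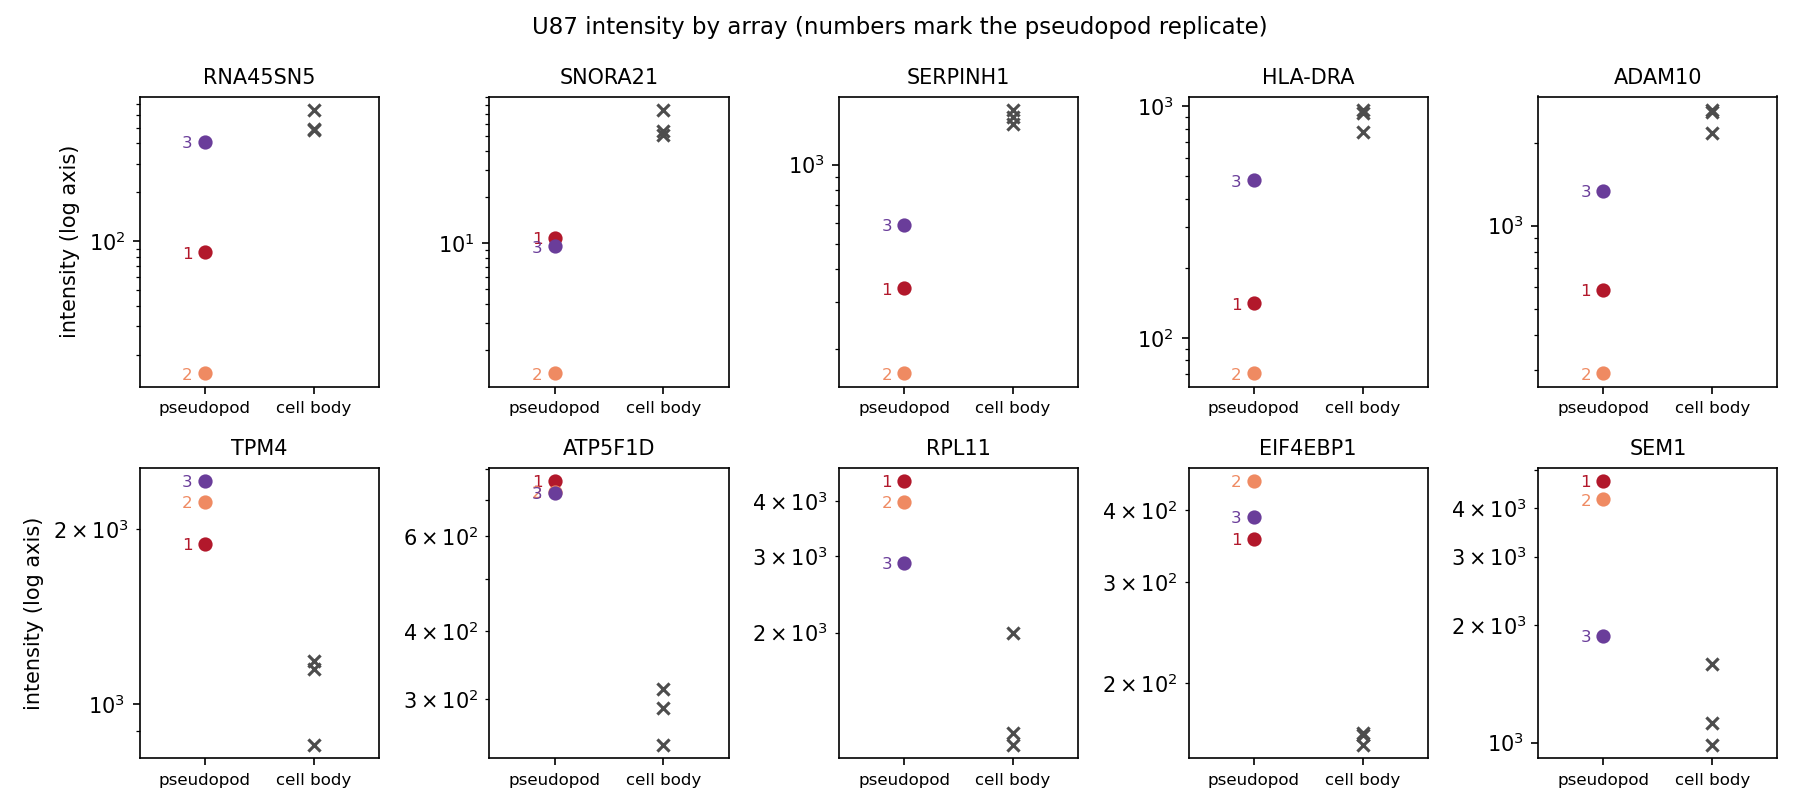
Intensity on a log axis in each U87 array for 10 genes, with pseudopod arrays as numbered points and cell body arrays as crosses; the axes differ between panels. SERPINH1, HLA-DRA and ADAM10 are lower in all 3 pseudopod arrays with replicate 3 nearest to the cell bodies, RNA45SN5 of replicate 3 (408.2) nearly reaches them (487.3 to 645.6), and TPM4, ATP5F1D, EIF4EBP1 and SNORA21 have replicate 3 at the level of another pseudopod array.

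Genes for mitochondrial proteins made in the cytosol were higher in pseudopods. Of 55 mitochondrial ribosomal proteins, 44 rose and 0 fell, beside 11.7% and 11.8% over all genes, with a median change of 0.68 against 0.04 (30 to 51 rises with 1 array left out, fewest without pseudopod replicate 2). MRPL40 stood at 775.7, 727.8 and 491.2 in pseudopods against 220.7, 309.6 and 260.6 in cell bodies (1.27 ± 0.19). MRPS17 stood at 556.5, 581.8 and 384.8 against 195.4, 296.4 and 177.4 (1.14 ± 0.16), and all pseudopod arrays were higher in both. Of 56 nuclear-encoded subunits of the respiratory chain 38 rose and 0 fell (median 0.61; 28 to 48 with 1 array left out). ATP5F1D, a small subunit of the rotor of ATP synthase, stood at 759.8, 725.7 and 722.6 against 246.8, 288.1 and 313.3 (1.34 ± 0.22, adjusted p = 6.3e-05, limma). Here replicate 3 equalled the other pseudopod arrays. NDUFA13 (1.28 ± 0.20) and COX6B1 (1.22 ± 0.19), of complexes I and IV, rose too.

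Transcripts made in the mitochondrion itself went the other way. Of 7 mitochondrially encoded transcripts tested, 3 fell and 0 rose, with a median of -0.72. ATP6 stood at 2898, 2245 and 3327 in pseudopods against 5286, 4272 and 5131 in cell bodies (-0.80 ± 0.20, adjusted p = 0.0036, limma), with no overlap. It was not called with the mean of its probe sets (-0.665, adjusted p = 0.053) or without such shared probe sets (-0.53, adjusted p = 0.35, limma). ND2, a complex I subunit, changed by -1.01 ± 0.26 and COX3, a complex IV subunit, by -0.998 ± 0.30. ND2 lost its call without pseudopod replicate 2 (-0.63, adjusted p = 0.086), and COX3 without pseudopod replicate 1 (-0.73, adjusted p = 0.13), replicate 2 (-0.90, adjusted p = 0.079), cell body replicate 1 (-0.90, adjusted p = 0.068) or replicate 3 (-0.83, adjusted p = 0.082, all limma). Without pseudopod replicate 2, 1 of the 7 was called lower, and with 1 other array left out 2 to 4 were. The list medians of subunits coded in the nucleus and in the mitochondrion had opposite signs, and the difference between the lists was not tested.

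Of 52 cytosolic ribosomal proteins 21 rose and 0 fell (median 0.39, and 0.77, 0.51 and -0.09 in pseudopod replicates 1, 2 and 3), and 38 rose without pseudopod replicate 3 but 13 without pseudopod replicate 1. RPL36 stood at 3792, 3414 and 1906 in pseudopods against 956.1, 1303 and 1159 in cell bodies (1.35 ± 0.18), and RPL35A at 7183, 6360 and 4084 against 2205, 3101 and 1856 (1.29 ± 0.30). Genes of this family have many processed pseudogenes with near-identical sequence, so a probe set may read several. Translation factors gave 12 rises among 37 (median 0.30; 7 without pseudopod replicate 1 or 2 and 22 without replicate 3). EIF4EBP1, the repressor of cap-dependent initiation, stood at 357, 450.1 and 389.8 against 163.5, 156.1 and 162.5 (1.23 ± 0.20), whereas its partner EIF4E gave 0.20 ± 0.21 (adjusted p = 0.56, limma). EIF5A changed by 0.76 with the probe set used and by -0.03 with the mean of its probe sets. It lost its call without pseudopod replicate 2 (0.57, adjusted p = 0.12) or cell body replicate 1 (0.70, adjusted p = 0.057, limma). Proteasome genes gave 15 rises among 33 (median 0.37; 7, 5 and 24 without pseudopod replicates 1, 2 and 3, and 9 without cell body replicate 1), with SEM1 first and PSMD9 at 0.89 ± 0.20.

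Cytoskeletal lists had medians of 0.19 to 0.34. Of 35 actin and actin-binding genes 4 rose and 0 fell (median 0.19), of 26 Arp2/3 and nucleator genes 7 rose and 1 fell (0.34), of 26 cytoplasmic focal adhesion genes 2 rose and 1 fell (0.20), of 36 microtubule and motor genes 11 rose and 3 fell (0.20), and of 7 septins 0 rose and 0 fell (0.25; 1 higher at limma's unadjusted p under 0.05). Over all genes 11.7% rose and 11.8% fell. With 1 array left out the rises among actin genes were 1 (without pseudopod replicate 2) to 7 (without replicate 3), those among nucleator genes 4 (without pseudopod replicate 1) to 8, those among focal adhesion genes 1 to 5 (without replicate 3), and those among microtubule genes 4 (without pseudopod replicate 2), 6 (without cell body replicate 3) and up to 16. TPM4, a tropomyosin of stress fibres, stood at 1882, 2224 and 2416 in pseudopods against 852.5, 1151 and 1185 in cell bodies (1.03 ± 0.27, adjusted p = 0.0060, limma), and replicate 3 was the highest array. BRK1, a small subunit of the WAVE complex, stood at 2991, 3626 and 2399 against 1732, 1636 and 1683 (0.81 ± 0.17) and ARPC1A, of the Arp2/3 complex, at 3205, 2976 and 2207 against 1458, 1692 and 1569 (0.81 ± 0.15), with all pseudopod arrays higher. The dynein light chains DYNLT1 (0.84 ± 0.16) and DYNLRB1 (0.84 ± 0.14) rose. VCL, vinculin, was the focal adhesion gene that fell (1977, 1229 and 2474 against 3766, 3348 and 3241; -0.92 ± 0.17). ACTB (0.20 ± 0.19, adjusted p = 0.52), VIM (0.06 ± 0.19, adjusted p = 0.88), GAPDH (0.03 ± 0.21, adjusted p = 0.96) and ACTN4 (-0.58 ± 0.28, adjusted p = 0.14, all limma) were not called. For VIM the mean of its probe sets, 1 of them dim, gave -0.79 (adjusted p = 0.0011, limma).

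RNAs described in other cells as localised to protrusions were only in part higher. Over all genes tested, 11.7% rose and 11.8% fell. Of 17 tested, 5 rose and 2 fell (median 0.28; 1 rise without pseudopod replicate 1, pseudopod replicate 2 or cell body replicate 2, 3 without cell body replicate 3 and up to 6 otherwise). RAB13, a small GTPase whose RNA is a standard example, stood at 3931, 3328 and 2566 in pseudopods against 2400, 1708 and 1847 in cell bodies (0.71 ± 0.22, adjusted p = 0.019, limma). NET1, an exchange factor for RhoA, stood at 1613, 951.8 and 840.6 against 630.3, 568.5 and 660.9 (0.80 ± 0.24, adjusted p = 0.016, limma). Both were higher in all 3 pseudopod arrays. The RAB13 call was lost without pseudopod replicate 1 (0.57, adjusted p = 0.12) or replicate 2 (0.69, adjusted p = 0.068) and without cell body replicate 2 (0.61, adjusted p = 0.081) or replicate 3 (0.67, adjusted p = 0.062, all limma). The NET1 call was lost without pseudopod replicate 1 (0.52, adjusted p = 0.17) or cell body replicate 2 (0.74, adjusted p = 0.056, limma). The members that fell, P4HB (-1.49 ± 0.26) and DDR2, code for an ER enzyme and a membrane receptor and belong to the groups above. The share of the list that fell is close to that over all genes. DDR2 changed by -1.18 ± 0.31 and lost its call without pseudopod replicate 2 (-0.76, adjusted p = 0.090) or cell body replicate 1 (-0.94, adjusted p = 0.050, limma).

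Among 20 S100 proteins, annexins and AHNAK, 4 rose and 1 fell (median 0.22; 1 rise without pseudopod replicate 1, 2 without pseudopod replicate 2 or cell body replicates 2 or 3). Over all genes tested, 11.7% rose and 11.8% fell. S100A11, a calcium-binding protein that partners with annexins, stood at 763, 1427 and 887.9 in pseudopods against 305.3, 443.3 and 414 in cell bodies (1.33 ± 0.28, adjusted p = 6.9e-04, limma), and every pseudopod array was higher. AHNAK, a giant scaffold protein, stood at 1114, 379.9 and 774.4 against 1406, 1785 and 1104 (-1.01 ± 0.32, adjusted p = 0.020, limma), and the fractions overlapped. Another AHNAK probe set gave 1.04, and the call was lost with equal array medians, without pseudopod replicate 2 (-0.59, adjusted p = 0.25) and without cell body replicates 1 (-1.01, adjusted p = 0.055) or 2 (-0.84, adjusted p = 0.097, limma). SEPTIN9 gave 0.23 ± 0.22 (adjusted p = 0.52, limma).

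Probe sets named for RNAs that stay in the nucleus were measured as well. The RNA was primed with oligo(dT), and which transcripts the RNA45SN5 and SNORA21 probe sets read was not tested. RNA45SN5, the ribosomal RNA precursor that exists in the nucleolus, stood at 85.2, 15.3 and 408.2 in pseudopod replicates 1, 2 and 3 and at 645.6, 487.3 and 493.9 in cell bodies (-2.33 ± 0.56, adjusted p = 0.0027, limma; -3.30 without replicate 3, adjusted p = 6.0e-06). The 3 pseudopod arrays ranged widely, and replicate 3 was close to the cell bodies. The call was lost without pseudopod replicate 2 (-1.42, adjusted p = 0.062, limma). SNORA21, a nucleolar guide RNA, stood at 10.8, 1.4 and 9.5 against 74.7, 54 and 50.9 (-1.72 ± 0.32, adjusted p = 2.0e-04, limma), and in this RNA replicate 3 was as low as replicate 1. MALAT1, a long RNA of nuclear speckles, stood at 3481, 2274 and 4109 against 6067, 4963 and 5503 (-0.78 ± 0.34, adjusted p = 0.10, limma), below the cell bodies in every pseudopod array without passing the test. Of 10 nuclear-retained and nucleolar RNAs, 4 fell and 1 rose (median -0.60; 1 to 4 falls with 1 array left out, fewest without pseudopod replicate 2). Messages for nuclear proteins are to be read beside 11.7% of all genes higher and 11.8% lower. Of 39 splicing factor genes 10 rose and 3 fell (median 0.25), with SF3B5 (1.17 ± 0.18) and SNRPD1 (1.11 ± 0.21) higher, of 14 histone genes 5 rose and 0 fell (0.51), with H2BC12 at 1.09 ± 0.20, and of 35 DNA replication genes 7 rose and 0 fell (0.17), with RPA3 at 1.21 ± 0.23. Rises were fewest without pseudopod replicate 1 for splicing (6) and replication (4) and without pseudopod replicate 2 for histones (1; 2 without replicate 1). Of 33 mitosis genes 3 rose (6 without pseudopod replicate 3) and 2 fell, and CENPH, a kinetochore protein, stood at 576.7, 637.4 and 694.5 against 315.7, 249.7 and 213 (1.26 ± 0.33).

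**Figure D3:**
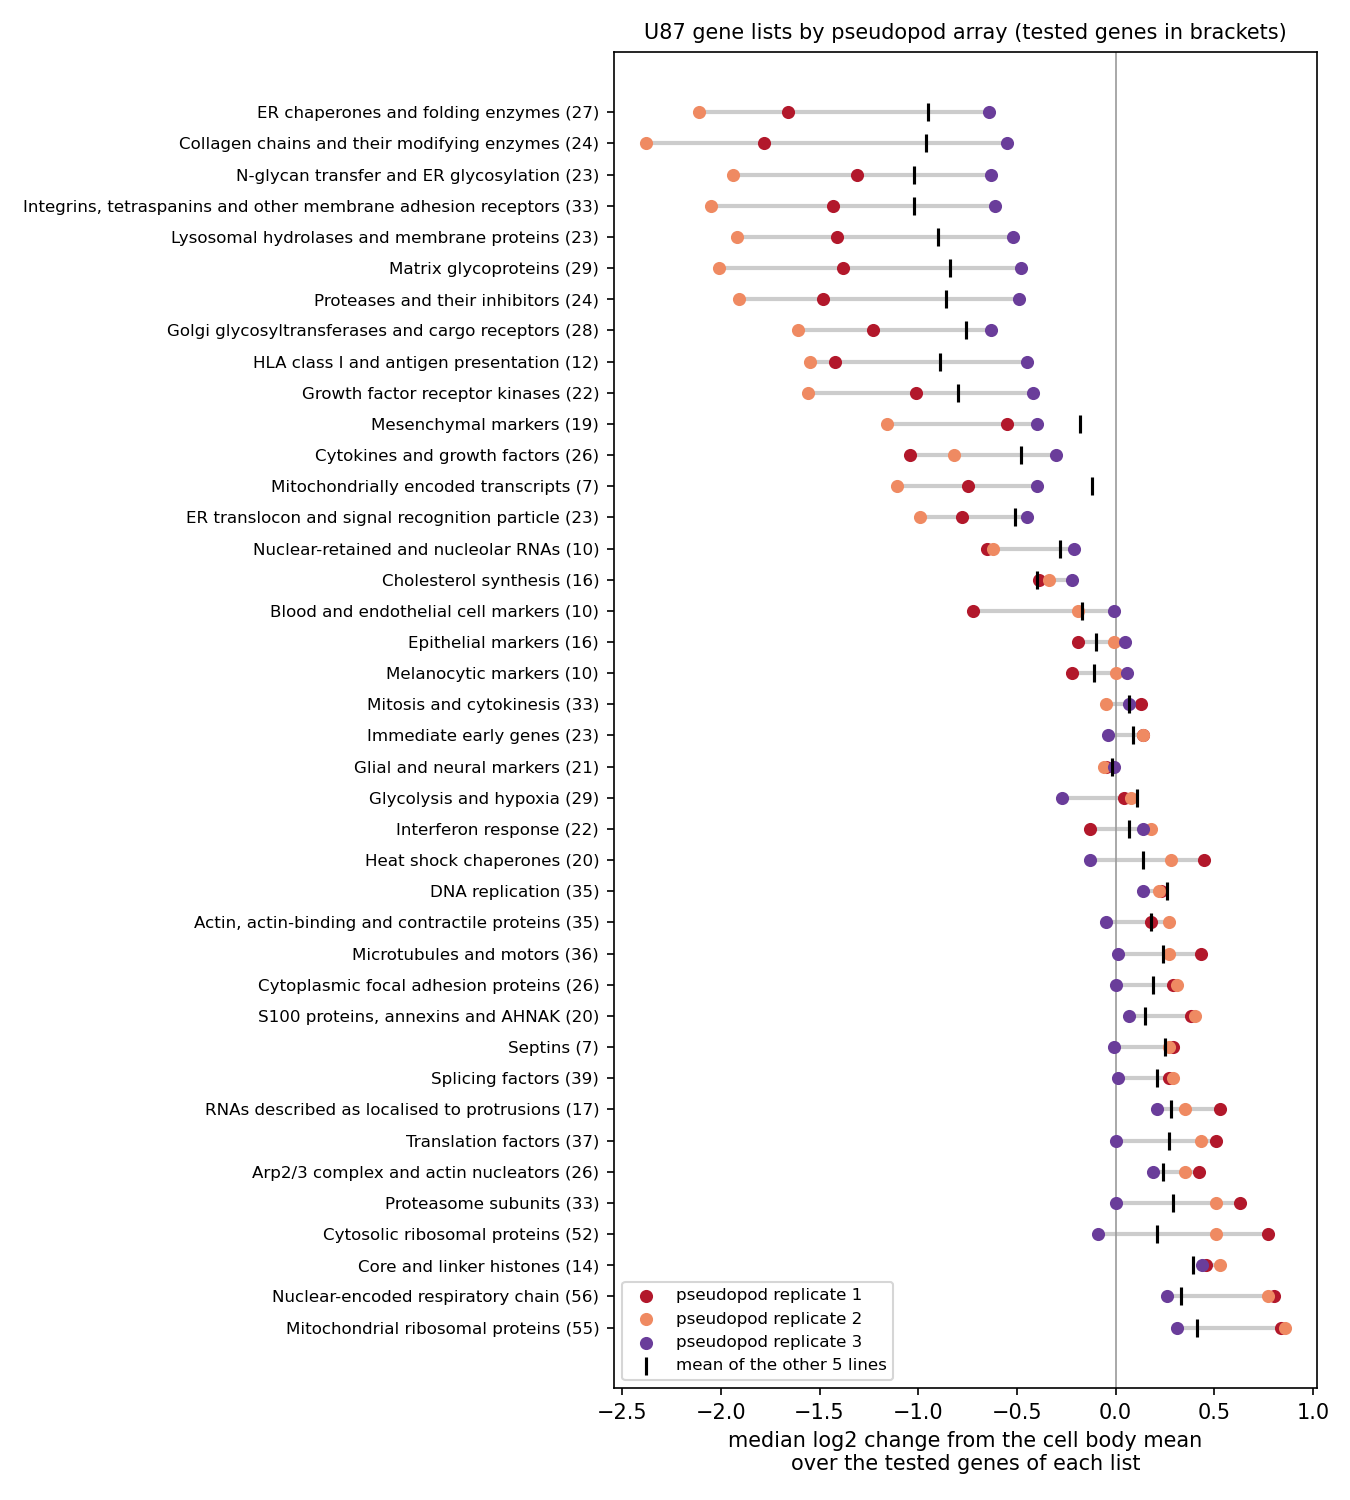
Median log2 change from the cell body mean over the tested genes of each list, for U87 pseudopod replicates 1, 2 and 3 (points) and for the mean of the other 5 lines (black bars). ER chaperones lie at -1.66, -2.11 and -0.64 in replicates 1, 2 and 3, mitochondrial ribosomal proteins at 0.84, 0.86 and 0.31 and cytosolic ribosomal proteins at 0.77, 0.51 and -0.09.

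The third pseudopod array kept the direction of most changes at a smaller size. Genes were chosen from the other arrays alone: of 1402 genes called at least 2-fold lower without it, replicate 3 was below all cell body arrays in 1172 (83.6%), inside their range in 228 (16.3%) and above it in 2. The median change of these genes was -1.42 in replicate 1, -1.82 in replicate 2 and -0.61 in replicate 3. Gene by gene the change in replicate 3 was 36.2% of the mean of the others at the median, with quartiles of 26.2% and 47.9%, on the log2 scale. Among 1694 genes called at least 1.5-fold higher without it, replicate 3 was above all cell body arrays in 1288 (76%), with median changes of 0.83, 0.82 and 0.39. The cell body arrays served both to choose these genes and to place replicate 3, so the shares are a description. Array weights fitted by limma were 0.68, 0.755 and 0.269 for pseudopod replicates 1, 2 and 3 and 0.657 to 1.03 for the cell bodies.

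The reduction was uneven between gene groups. In replicate 3, 25 of 27 ER chaperones were still below all cell body arrays, beside 24.8% of all genes. It lay above all cell body arrays in 40 of 55 mitochondrial ribosomal proteins, 34 of 56 respiratory chain genes and 9 of 14 histones, beside 33% of all genes. Cytosolic ribosomal proteins did not follow: replicates 1 and 2 were above all cell body arrays in 52 and 45 of 52, replicate 3 in 14, and it was below all of them in 25. Heat shock chaperones were above all cell bodies in 17, 16 and 1 of 20 in replicates 1, 2 and 3, with 12 of 20 below in replicate 3. Glycolysis and hypoxia genes were above in 11, 7 and 1 of 29, with 14 below in replicate 3. Over all genes replicates 1 and 2 were above all cell bodies in 5419 and 6224 of 15399, so that the glycolysis list did not stand above that share in replicate 2 and lay near it in replicate 1. Single genes departed from the trend in the other direction. CENPH and TPM4, given above, were highest in replicate 3, ATP5F1D and EIF4EBP1 were at the level of the other pseudopod arrays, and of the 1402 falling genes 19 kept at least 90% of the change. The median intensity of the array, given above, went with these values, and its part in them was not tested.

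**Figure D4:**
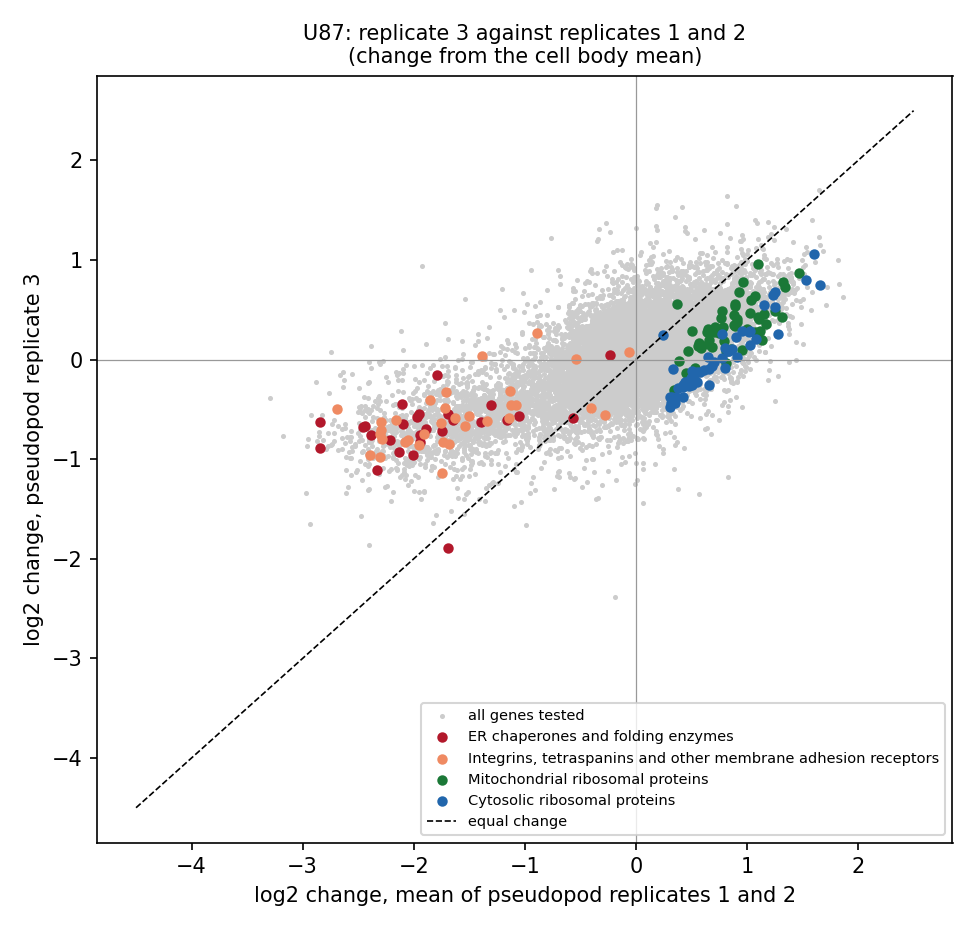
Log2 change from the cell body mean in pseudopod replicate 3 (vertical) against the mean of replicates 1 and 2 (horizontal) for all 15399 genes tested (grey) and 4 gene lists (coloured), with a dashed line of equal change. ER chaperones and adhesion receptors lie left of 0 and above the line, and cytosolic ribosomal proteins run below mitochondrial ribosomal proteins, with 25 of 52 below all cell body arrays in replicate 3.

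Some genes were called only without replicate 3, by a rule that takes the largest. Among the falls were SLC1A1, a glutamate transporter, CEMIP, a hyaluronan-degrading protein, ABCC3, an efflux pump, COL4A1, FST, an activin antagonist, and C3, complement. For ABCC3 a dim probe set gave 0.13 with all arrays, and its other probe sets gave -0.50 to -1.69. SLC1A1 stood at 271.6, 180.9 and 812.3 in pseudopods against 1573, 1140 and 1530 in cell bodies (-1.97 ± 0.82, adjusted p = 0.082; -2.57, adjusted p = 0.030 without replicate 3, limma), with no overlap even with all arrays. COL4A1, a basement membrane collagen, stood at 6.3, 21 and 135.9 against 241.3, 21.9 and 182.1 (-1.32 ± 0.55, adjusted p = 0.085; -2.12, adjusted p = 0.0026 without replicate 3, limma), where cell body replicate 2 was as low as pseudopod replicate 2. Among the rises, FABP5, a fatty acid carrier, stood at 1745, 1050 and 689.3 against 394.4, 966.5 and 276.5 (1.16 ± 0.51, adjusted p = 0.10; 1.48, adjusted p = 0.0497 without replicate 3, limma). AKNA, ARHGAP22, IMPA2, TAF12 and CTNNBL1 were the other rises, at 1.10 to 1.28 without replicate 3. Of the 3622 genes called with all arrays, 3474 were also called without replicate 3.

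The U87 change was compared gene by gene with the mean change of the other 5 lines, and few differences passed. Over genes the changes correlated at 0.86, and U87 changed 1.2-fold as far as the others on average (slope on log2 values; 1.48 without replicate 3). Both are descriptions, since all lines share the array design and processing. With all arrays 18 of 15399 genes (0.117%) differed, 7 with U87 lower (0.0455%) and 11 with U87 higher (0.0714%). Without pseudopod replicate 3, 551 genes did (3.58%), 408 lower (2.65%) and 143 higher (0.929%), and all 18 were among them. The U87 median lay farther from 0 than that of the mean of the other lines for ER chaperones (-1.55 against -0.95), collagens (-1.51 against -0.96) and mitochondrial ribosomal proteins (0.68 against 0.41). HT1080 alone had -1.60, -1.75 and 0.66, as far from 0 as U87 or nearly so. With all arrays no gene of these lists passed the test of the difference, with lowest adjusted p values of 0.261, 0.232 and 0.275 (limma). Mitochondrially encoded transcripts stood at -0.72 against -0.12, with a lowest adjusted p of 0.247 (limma). Without pseudopod replicate 3, 8 ER chaperones, 5 collagen genes and 2 mitochondrially encoded transcripts had a lower change in U87 and 4 mitochondrial ribosomal proteins a higher one.

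For 6 of the 7 genes with a lower change in U87, U87 cell bodies had a higher mean than the cell bodies of any other line. AQP9, a water and glycerol channel, stood at 85.6, 9.6 and 93.2 in U87 pseudopods against 236.5, 361.4 and 192.3 in U87 cell bodies, a change of -2.04 ± 0.28, and its mean in cell bodies of the other lines was at most 2.07. FAP, a membrane protease of activated fibroblasts (-1.95 ± 0.35), reached a mean of at most 78.3 in the other lines' cell bodies, in MDA435, where it changed by -0.83, and it changed by 0.18 to 0.45 in the other 4 lines. AGTR1, the angiotensin receptor (-1.60 ± 0.25; at most 30), PDCD1LG2, the checkpoint ligand PD-L2 (-1.46 ± 0.11; at most 2.83), OTOGL (-1.31 ± 0.23; at most 8.7) and CNGA3 (-1.10 ± 0.19; at most 1.5) also had low cell body means there. EMILIN2, a matrix glycoprotein, is different: it stood at 176.6, 79.2 and 284.1 in U87 pseudopods against 519.4, 680.2 and 575.1 in cell bodies (-1.77 ± 0.28), other lines had cell body means of 41.4 to 761, and their mean change was 0.00 (difference -1.78 ± 0.31, adjusted p = 0.010, limma). Its difference was not called without pseudopod replicate 2 (-1.33, adjusted p = 0.078) or without shared probe sets (-0.344, adjusted p = 0.81, limma). The last setting left a dim EMILIN2 probe set (means of 11.6 in U87 pseudopods and 18.1 in U87 cell bodies), with little room to fall. The SEs above pool the spread of all 12 groups, and low values vary little on this scale. In the fit of the 6 U87 arrays alone the falls of AQP9, FAP, AGTR1 and OTOGL were not called, and that of PDCD1LG2 was.

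Of the 11 genes higher in U87 pseudopods relative to the other lines, several were near the floor in U87 and fell elsewhere. NFE2L3, a transcription factor, lay between 2.4 and 17.7 in all U87 arrays and at 432 to 908 in the other lines' cell bodies, with a mean change there of -1.39. MCOLN3, ATP7B, NID1 and CTSH likewise had U87 levels of at most 26.8. EXD2 was somewhat higher, at 27.1 to 40.3 in U87, and changed by -0.02 there. PDCD1LG2 changed by -1.46 from U87 cell body values of 32.2 to 47.8. The part of level in these differences was not tested. CASR, the calcium-sensing receptor, did rise in U87 (34.3, 35.5 and 36.1 against 4.7, 15.4 and 10.4; 0.99 ± 0.21, adjusted p = 8.9e-04, limma) at a low level, and changed by -0.27 in the other lines. Its other probe sets gave -0.18 to 0.16 in U87, and averaged over its probe sets the rise was not called (0.166, adjusted p = 0.28, limma). CCBE1, a secreted collagen-domain protein, stood at 126.5, 103.7 and 76.5 against 53.7, 57.5 and 55.1 (0.70 ± 0.21, adjusted p = 0.015, limma) and changed by -0.53 in the others. Its other probe sets gave 0.25 and 0.05 in U87. Its U87 call was lost without pseudopod replicate 1 (0.56, adjusted p = 0.10) or replicate 2 (0.69, adjusted p = 0.056, limma). CORO2A, an actin-binding coronin (0.93 ± 0.16), and INSYN2A (0.60 ± 0.12) rose in U87 at levels of at most 34.4, and CCDC152 gave 0.18 in U87 and -0.85 in the others.

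**Figure D5:**
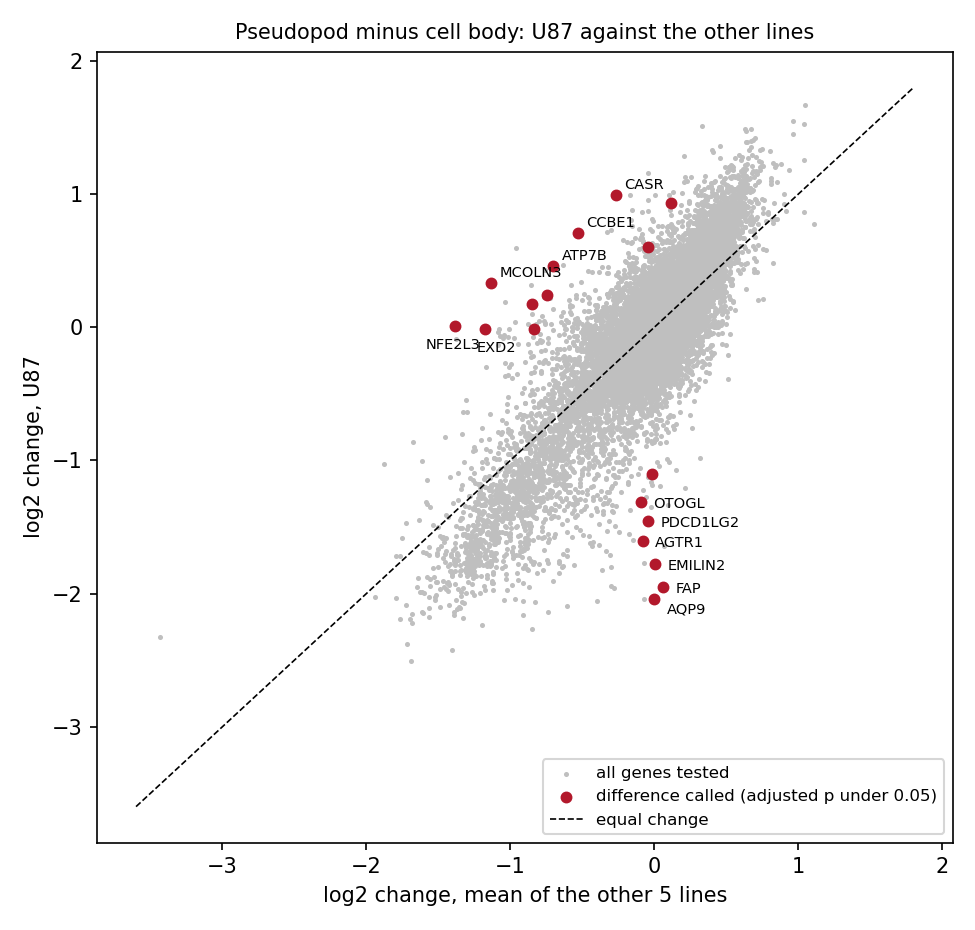
Log2 change (pseudopod minus cell body) in U87 (vertical) against the mean of the other 5 lines (horizontal) for the 15399 genes tested (grey), with the 18 genes whose difference was called in red, 12 of them named, and a dashed line of equal change. AQP9, FAP and EMILIN2 change by -2.04, -1.95 and -1.77 in U87, and the mean over the other lines is 0.06 for FAP and 0.00 for AQP9 and EMILIN2.

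Line by line, the calls of U87 were among the most numerous. HT1080, the fibrosarcoma line, had 1978 rises and 1855 falls, U251, the other glioblastoma line, 826 and 1437, MDA435 456 and 1357, MDA231 181 and 754 and DU145 127 and 332. Over genes the U87 change correlated most with that of HT1080 (0.84) and at 0.72 to 0.75 with the other lines, U251 included (0.74). The spread between replicates was 0.37 in U87 pseudopods and 0.27 in U87 cell bodies, and 0.22 to 0.43 in the other groups.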

How the data were processed

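The deposited table gives linear intensity values for 54593 probe sets on each array. RMA and Partek appear, with no role or version, per the submitters' processing notes. The mean of each U87 array after removal of 2% of values at each end was 149.18 to 149.49, so the arrays had been scaled. The sources used here do not name the program that did so. From these intensity values log2(intensity + 16) was computed, which understates the change of dim genes. Of the probe sets 41074 carried 1 gene symbol, 1798 several and 11721 none. Symbols were updated through Entrez numbers in RefSeq (GRCh38.p14, 41020 probe sets). The probe set with the highest mean stood for a gene (19775 genes), and a gene was tested if any group's mean was at least 24.4, the median over all arrays and probe sets (15399 genes).

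Fits used limma 3.58.1 in R 4.3.3 on 36 arrays with 12 group means and 24 residual degrees of freedom. Genes were called at an adjusted p under 0.05. Figures were drawn in Python 3.11.15. Named genes are the 12 largest rises and falls whose arrays do not overlap, the 6 largest each way called only without pseudopod replicate 3, the 6 largest differences each way from the other lines, up to 4 called members of each of 40 lists, and 14 fixed by name. The members, lists and tests were chosen with earlier results of these data known. Lists are described by counts and medians, with no set test. Alternatives were other pseudocounts (1 and 64), scalings, filters, probe set rules, weights, an intensity trend, a replicate block, U87 alone, and each U87 array left out. Same-numbered arrays did not deviate together (correlations -0.35, -0.05 and 0.01), so numbers were not taken as pairs. On simulated data for this contrast, with 200 of 15399 genes changed, 27% of 1.5-fold and 78% of 2-fold changes were recovered, with 6 false calls. Protein features were not analysed here.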

Additional observations from a re-analysis of the deposited data

Results flagged for a closer look

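A test of the difference itself marked 12 of the named genes, whose change in U87 departed from the mean change of the other 5 lines (limma, adjusted p under 0.05 over all genes tested). The difference in log2 change, U87 minus the other lines, was -2.04 for AQP9, -2.01 for FAP, -1.78 for EMILIN2, -1.52 for AGTR1, -1.41 for PDCD1LG2 and -1.22 for OTOGL. On the other side it was 1.16 for ATP7B, 1.16 for EXD2, 1.24 for CCBE1, 1.26 for CASR, 1.4 for NFE2L3 and 1.46 for MCOLN3. For AQP9, PDCD1LG2 and OTOGL none of the other lines had a cell body mean of 24.4 or more, and for FAP and AGTR1 1 of 5 did. For EXD2, CASR, NFE2L3 and EMILIN2 all 5 did, and for ATP7B, CCBE1 and MCOLN3 4 did. A value near the floor has little room to fall on the log2(intensity + 16) scale. AQP9, PDCD1LG2 and OTOGL had cell body means of at most 2.07, 2.83 and 8.7 in the other lines. MCOLN3 and NFE2L3 were at most 16.3 and 17.7 in U87. For these genes the test sets a change against a change that could hardly be seen, so a kept call does not show a change particular to U87. With each U87 array left out in turn, AQP9, PDCD1LG2 and MCOLN3 kept the call and the other 9 lost it at least once. Without pseudopod replicate 2 it was lost by FAP (-1.71, adjusted p = 0.17), EMILIN2 (-1.33, 0.078), AGTR1 (-1.22, 0.11), OTOGL (-0.97, 0.41), ATP7B (1.21, 0.11), CCBE1 (1.22, 0.10), CASR (1.26, 0.078) and NFE2L3 (1.18, 0.31; adjusted p from limma in brackets). Without cell body replicate 3 it was lost by FAP (-1.70, 0.14), AGTR1 (-1.36, 0.085), OTOGL (-1.17, 0.18), ATP7B (0.92, 0.26), EXD2 (1.14, 0.053), CCBE1 (1.23, 0.073), CASR (1.28, 0.053) and NFE2L3 (1.44, 0.10). Pseudopod replicate 1 decided it for FAP (-1.70, 0.14), AGTR1 (-1.30, 0.078), OTOGL (-0.98, 0.28), ATP7B (1.27, 0.050) and CCBE1 (1.09, 0.12), cell body replicate 1 for FAP (-1.96, 0.088), OTOGL (-1.11, 0.23), ATP7B (1.18, 0.12), CCBE1 (1.22, 0.084), CASR (1.10, 0.12) and NFE2L3 (1.45, 0.094), and cell body replicate 2 for NFE2L3 (1.30, 0.081).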

How the results depend on the processing

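Of 161 named genes called in U87, 50 kept the call in all 19 alternatives, 53 lost it only in fits of the U87 arrays alone, and 49 lost it with 1 U87 array left out (42 without pseudopod replicate 2, 25 without replicate 1 and 3 without replicate 3). In 4 named genes called in the main fit or in the alternative, the sign turned, and the cause was not tested. These were ANXA11 (-0.0424) and ERAP1 (0.189) without shared probe sets, and EIF5A (-0.0282) and VIM (-0.793) with the mean of all probe sets. VIM is not among the 161, since the main fit did not call it. Sign changes in genes that neither fit called are not counted. ABCC3, for example, ranged from -2.25 to 0.131 over the alternatives. For ERAP1 another probe set that is not shared gave -1.62. The U87 arrays alone called 498 genes higher and 858 lower, on fewer residual degrees of freedom, and 1122 were higher without shared probe sets, where 12216 genes were tested. With 1 array left out, 949 to 2312 genes were higher and 1205 to 2141 lower. The replicate block gave 1309 and 1563, and with the U87 arrays alone 60 and 376. The labels do not say whether same-numbered arrays share a culture, so whether a block is apt is not known.

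Counts of genes that differ from the other lines moved most. With 1 array left out they were 3 to 143 (U87 higher) and 2 to 408 (U87 lower), against 11 and 7. The higher and lower counts were 5 and 3 with a pseudocount of 1, 28 and 47 with 64, 6 and 11 with equal medians, 36 and 120 with array weights, and 3 and 4 with the replicate block. The intensity trend gave 6 higher, and the mean of all probe sets 12 lower. Under equal medians and quantile normalization the medians of the glycolysis (0.21 and -0.05 against 0.05), mitosis (0.16 and 0 against -0.01) and melanocytic lists (0.02 and 0.03 against -0.02) lay on either side of 0. With 3 arrays a fraction, 2-fold changes were recovered more often than 1.5-fold ones in simulation. Protein sequence features were planned and not run, since no protein table was used here.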

Other observations

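HLA class II genes, whose products present peptides to helper T cells, were all lower in U87 pseudopods. The group was chosen after the value of HLA-DRA was seen. HLA-DRA, HLA-DRB1, HLA-DPA1, HLA-DPB1, HLA-DQA1, HLA-DQB1, HLA-DMA, HLA-DMB and the invariant chain CD74 make 9 of 9 called lower (limma, adjusted p under 0.05), beside 11.8% of all genes. HLA-DQB1 stood at 85.9, 41.9 and 277.1 in pseudopods against 502.3, 310.4 and 412.7 in cell bodies (-1.80 ± 0.37), and HLA-DPA1 at 916.2, 523 and 1631 against 3787.2, 2286.5 and 2619.9 (-1.60 ± 0.37). The fractions overlapped in CD74 and HLA-DQA1. In the other lines the mean change of the 9 genes was negative too (-0.42 to -1.06). With all arrays no difference of U87 from them was called (lowest adjusted p = 0.36, limma). Without pseudopod replicate 3 the difference of HLA-DRA was called (-2.11, adjusted p = 0.0089, limma). HLA-DRA, HLA-DPA1 and HLA-DQB1 kept their calls with each U87 array left out. Without pseudopod replicate 2 the others did not: HLA-DRB1 (-0.99, adjusted p = 0.062), HLA-DPB1 (-0.95, 0.15), HLA-DQA1 (-1.17, 0.080), HLA-DMA (-0.84, 0.13), HLA-DMB (-1.10, 0.18) and CD74 (-0.98, 0.10; adjusted p from limma in brackets). Other single arrays ended calls too: without pseudopod replicate 1 HLA-DQA1 (-1.29, 0.054), HLA-DMA (-0.97, 0.074), HLA-DMB (-1.34, 0.095) and HLA-DPB1 (-0.81, 0.20), without cell body replicate 1 the same 4 (-1.30, 0.053; -1, 0.067; -1.39, 0.081; -0.96, 0.13), and without cell body replicate 3 HLA-DMB (-1.30, 0.098) and HLA-DPB1 (-1.05, 0.090). CIITA, the activator of these genes, codes for a soluble protein and gave 0.30 ± 0.32 (adjusted p = 0.58, limma).

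Among 29 glycolysis and hypoxia genes 5 fell and 0 rose (median 0.05), beside 11.8% and 11.7% of all genes, and 5 and 0 did so at limma's unadjusted p under 0.05. The count of called falls was 1 without pseudopod replicate 2, and 3 without pseudopod replicate 1 or cell body replicate 1. The glucose transporters SLC2A3 and SLC2A1 changed by -1.25 ± 0.31 and -1.04 ± 0.22, and the carbonic anhydrase CA12 by -1.30 ± 0.39, all membrane proteins, and ADM, a secreted peptide, by -1.46 ± 0.40. PKM, a soluble enzyme and the fifth, changed by -0.60 (chosen after its value was seen). Without pseudopod replicate 2 SLC2A3 (-0.94, adjusted p = 0.053), CA12 (-0.92, 0.15), ADM (-1.12, 0.088) and PKM (-0.42, 0.16) were not called. ADM was not called without pseudopod replicate 1 (-1.15, 0.072) or cell body replicate 1 (-1.22, 0.060), nor CA12 (-1.19, 0.061 and -1.05, 0.096), nor PKM without cell body replicate 3 (-0.44, 0.12; all limma). SLC2A1 was called in each fit that left out 1 array.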
